A study of Mus musculus with 2 samples.

Results

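The genes described are 40 components of the DNA replication machinery, chosen by symbol from the 28692 genes of the count matrices. All 40 were found in both matrices, and all 40 were detected in more than 3 kept cells, which held for 16673 genes of the matrices in all. The fewest cells were found for *Orc1*, with a UMI in 85 cells. Retinas of *LHX4::GFP* mouse embryos at E14.5 were dissociated, pooled from 2 litters into 1 sorting solution and sorted by flow cytometry into GFP+ and GFP- cells, and each gate was made into 1 droplet library with the 10X Chromium 3' kit. Both gates came from the same transgenic retinas of strain Tg(Lhx4::EGFP)KN199Gsat/Mmucd, in which a bacterial artificial chromosome carrying the *Lhx4* locus drives EGFP. The mice of this strain were used as heterozygotes. No treatment of the sorted retinas was described, and no non-transgenic group was part of the comparison. A unique molecular identifier (UMI) marks each captured transcript, and levels are given as UMIs per 1000000 UMIs of a group of cells (CPM).

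Replication begins when the origin recognition complex, Cdc6 and Cdt1 load the Mcm2 to Mcm7 hexamer onto DNA in G1, and geminin blocks further loading once S phase has started. Cdc45 and the GINS complex then turn the hexamer into an active helicase, polymerase alpha with its primase lays down primers, and polymerases delta and epsilon extend them with the sliding clamp PCNA, which the RFC complex loads. In the developing retina these proteins act in cycling progenitor cells, and the ganglion, amacrine, horizontal and photoreceptor cells that these produce leave the cell cycle for good.

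The GFP+ library held 3689 kept cells with a median of 3894 UMIs, and the GFP- library 3389 kept cells with a median of 8848 UMIs. The limit of 3500 genes per cell had removed 1055 GFP- barcodes (23.7%) but 39 GFP+ barcodes (1.05%). The libraries had 20 cell barcodes in common. The gates matched their labels, since 6 cone markers (*Gngt2*, *Gnb3*, *Pdc*, *Gnat2*, *Thrb* and *Rxrg*) summed to 4207 CPM in the GFP+ and 31.4 CPM in the GFP- library. With 1 library per gate there were no replicates. All intervals are 95% exact intervals that cover counting error only, no p-value was computed, and a difference between gates cannot be told apart from a difference between libraries.

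Cells were assigned to classes by the UMIs of marker genes that are not among the 40. Multipotent cells met no other rule and had at least 3 UMIs over at least 2 of 6 progenitor markers, such as *Hes1* and *Sox9*, and neurogenic cells, with or without these, had at least 2 UMIs of 4 neurogenic markers, such as *Olig2* and *Atoh7*. Postmitotic cells had at least 3 UMIs over at least 2 markers of 1 lineage (cone, retinal ganglion cell or RGC, amacrine and horizontal cell or AC/HC) and met neither rule above, and transitional cells met both the neurogenic and a postmitotic rule. Cells with multipotent and postmitotic markers but no neurogenic ones (71 GFP- and 33 GFP+) were kept out of these classes, as were 88 GFP- and 31 GFP+ cells that met no rule. The GFP- library held 1315 multipotent, 1018 neurogenic, 390 transitional and 507 postmitotic cells, the last with 253 RGC, 207 AC/HC and 45 cone cells. With neither the upper limit on genes nor the mitochondrial limit there were 1549 multipotent, 1192 neurogenic and 923 postmitotic GFP- cells. The limits thus removed a larger share of the postmitotic than of the multipotent or neurogenic cells. The GFP+ library held 3330 postmitotic cone cells, 241 transitional cone cells, 25 neurogenic and 14 multipotent cells. Progenitor genes outside the class markers (*Sfrp2*, *Fgf15*, *Ccnd1*, *Cp*, *Gpx3*, *Dapl1*, *Id3* and *Zfp36l1*) summed to 8253 CPM in the multipotent and 55.7 CPM in the GFP+ cone cells, and they serve below as a reference for RNA of progenitor origin.

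Replication genes are textbook targets of the E2F factors, so the bases before their RefSeq start sites were searched for the E2F-type motifs TTTCCCGC, TTTCGCGC, TTTGCCGC and TTTGGCGC on either strand. RefSeq promoters of build GRCm38.p6 were matched for 32 of the 40 genes. These genes had 36 promoters, of which 8 held such a motif in the 250 bases before the start (22.2%), each of a different gene, against 1.86% of all 32851 promoters of the table. The CCAAT box was held by 22 of the 36 promoters (61.1%), with 33.8% of all promoters holding it, and TTTGAA, the core of the cell cycle homology region, by 4 (11.1%), with 16.0% of all promoters holding it. The matched sites are shown because they are a sequence shared by genes whose cone levels differed widely from each other relative to progenitors. Capitals mark the matched bases, which in *Mcm5* and in the distal site of *Mcm6* belong to overlapping motifs on opposite strands.
Mcm5, chr8:75109347-75109376, plus strand: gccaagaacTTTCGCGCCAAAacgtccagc
Mcm6 distal, chr1:128359795-128359824, minus strand: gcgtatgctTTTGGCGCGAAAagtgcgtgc
Mcm6 proximal, chr1:128359734-128359763, minus strand: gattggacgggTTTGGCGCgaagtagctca
Mcm7, chr5:138172030-138172059, minus strand: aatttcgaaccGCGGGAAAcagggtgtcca
Gins3, chr8:95633507-95633536, plus strand: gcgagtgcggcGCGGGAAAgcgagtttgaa
Cdc6, chr11:98908002-98908031, plus strand: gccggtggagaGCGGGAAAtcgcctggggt
Orc1, chr4:108579416-108579445, plus strand: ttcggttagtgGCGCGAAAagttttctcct
Pola1, chrX:93632275-93632304, minus strand: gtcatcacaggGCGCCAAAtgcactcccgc
Rfc3, chr5:151651209-151651229, minus strand: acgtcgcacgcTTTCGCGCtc
The matched bases began 153 bases before the RefSeq start in *Mcm5*, 110 and 47 bases in *Mcm6*, 165 bases in *Mcm7*, 41 bases in *Gins3*, 138 bases in *Cdc6* and in *Pola1*, 27 bases in *Orc1* and 10 bases in *Rfc3*. RefSeq and GENCODE place the start of most of these genes differently, and in *Mcm7*, *Gins3*, *Cdc6*, *Orc1* and *Rfc3* the matched bases lie inside the gene as GENCODE annotates it and not upstream of it. A match is a run of letters and no measurement of binding.

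The first question was how far replication genes separate the sorted cones from the rest of the retina. All 40 genes were lower in the GFP+ library, and together they made up 835 CPM there (interval 821 to 849) against 3190 CPM (3170 to 3210) in the GFP- library. Of the 40 genes, 33 were at least 2-fold lower and none was at least 2-fold higher, where among all 12825 genes with at least 50 UMIs 14.2% were at least 2-fold lower and 21.3% at least 2-fold higher. The median log2 ratio was -1.99 for the 40 genes and 0.30 for all genes. Scaling by TMM factors moved the median of all genes to -0.03. Relative to all genes the 40 lay at -2.29 on the log2 scale, a distance that such a scaling cannot change, since it shifts every gene alike. In these sums fewer cycling cells and less replication RNA per cell cannot be told apart.

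**Figure D1:**
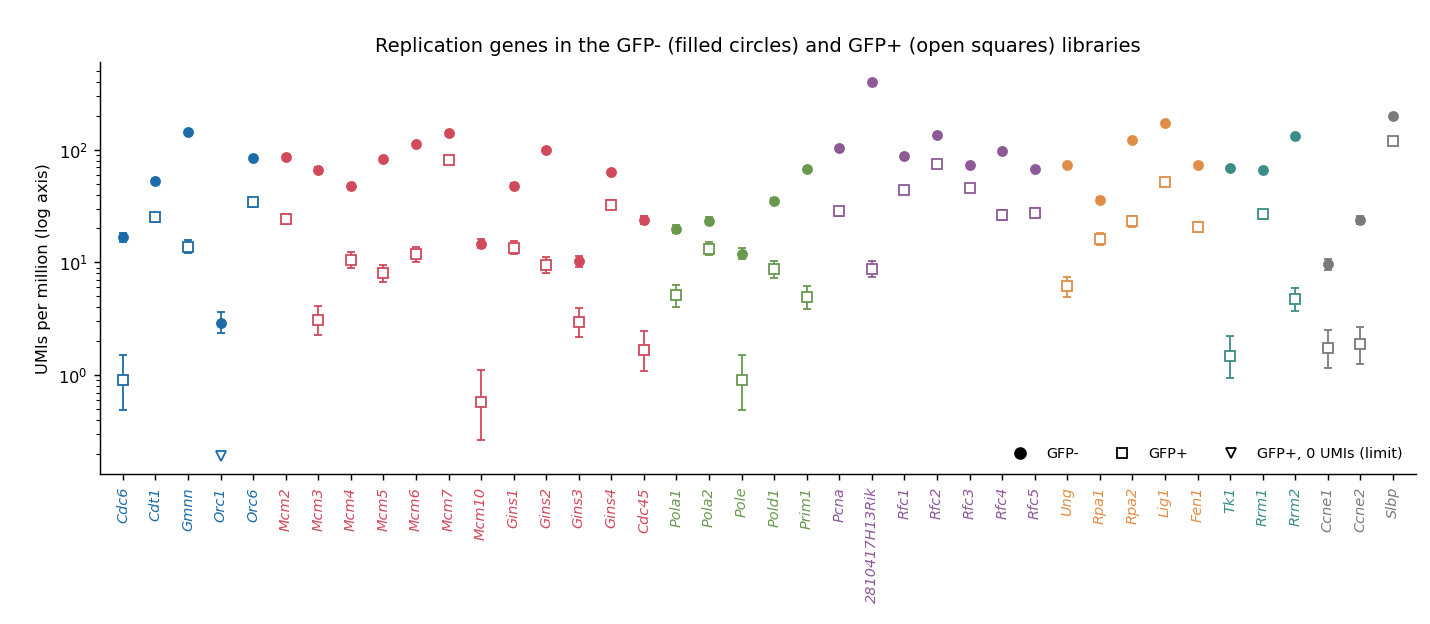
Level of each of the 40 genes in UMIs per 1000000 (log axis) in the GFP- library (filled circles) and the GFP+ library (open squares), colored by role, with 95% exact Poisson intervals of counting. Every square lies under its circle, by 1.6-fold for *Rfc3* and by 46.3-fold for *Tk1*, and *Orc1* had 0 UMIs in the GFP+ library and is drawn at the limit of 3 counts.

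Among the licensing factors, *Gmnn*, which encodes geminin, had a level of 13.8 CPM in the GFP+ library, 10.4-fold lower than its 143 CPM in the GFP- library. *Cdc6* stood at 0.903 and 16.7 CPM, from 14 and 502 UMIs. *Orc1*, the largest subunit of the origin recognition complex, had 0 UMIs in GFP+ and 88 UMIs in GFP- cells and was therefore at least 15.1-fold lower. The other licensing factors differed less. *Orc6*, another subunit of the same complex, stood at 34.1 and 84.0 CPM (2.47-fold lower), and *Cdt1*, the loading factor that geminin binds, at 25.1 and 52.2 CPM (2.08-fold lower). *Cdt1* overlaps *Gm20388* on the same strand, so its counts carry the uncertainty of reads shared with that gene.

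The helicase genes spanned the range from *Mcm10*, a factor that helps to activate the helicase, at 0.581 against 14.7 CPM (25.3-fold lower), to *Mcm7* at 81.1 against 141 CPM (1.73-fold lower). The Mcm subunits assemble one to one in the hexamer, yet their ratios of GFP+ over GFP- ran from 0.0465 for *Mcm3* to 0.577 for *Mcm7*, a 12.4-fold span with intervals far apart. *Mcm5* (10.2-fold lower) and *Mcm6* (11.8 and 112 CPM) lay toward *Mcm3*, and *Mcm4* and *Mcm2* were 4.53-fold and 3.59-fold lower. The same held in the GINS complex, where *Gins2* was 10.4-fold lower, *Gins1* 3.54-fold, *Gins3* (2.97 against 10.2 CPM) 3.44-fold and *Gins4* 1.94-fold. *Cdc45*, which joins the Mcm ring and GINS, was 14.2-fold lower.

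The polymerase genes followed the same split. *Prim1*, the catalytic subunit of the primase, stood at 4.90 and 67.9 CPM (13.8-fold lower) and *Pole*, the catalytic subunit of polymerase epsilon, at 0.903 and 12.0 CPM (13.3-fold lower). *Pold1* and *Pola1*, the catalytic subunits of polymerases delta and alpha, were 4.07-fold and 3.89-fold lower. *Pola2*, the accessory subunit of polymerase alpha, was 1.77-fold lower (13.3 and 23.5 CPM).

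*2810417H13Rik* (ENSMUSG00000040204), which the current annotation names *Pclaf* and which encodes a PCNA-associated factor, lies at chr9:65890237-65903266 on the plus strand of GRCm38. Its level of 8.77 CPM in the GFP+ library (interval 7.36 to 10.4) was 45.5-fold lower than the 399 CPM of the GFP- library (392 to 406), and no other member of the clamp group came near this difference. The clamp itself, *Pcna*, was 3.60-fold lower at 28.5 against 103 CPM. Its 2 named pseudogenes could take or lend some of its reads. Among the clamp loader genes *Rfc4* was 3.69-fold lower, *Rfc5* (27.4 against 67.6 CPM) 2.46-fold, *Rfc1* 1.97-fold, *Rfc2* 1.81-fold and *Rfc3* (45.9 against 73.4 CPM) 1.6-fold.

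Among genes of the fork and of fragment joining, *Ung*, a uracil-DNA glycosylase, stood at 6.13 and 73.7 CPM and was 12.0-fold lower. *Lig1*, the ligase that joins Okazaki fragments, stood at 51.5 and 173 CPM, and *Rpa1*, the large subunit of the single-strand binding protein, at 16.1 and 35.7 CPM. *Rpa2* and *Fen1*, the flap endonuclease, were 5.24-fold and 3.52-fold lower. *Rrm2*, the small subunit of ribonucleotide reductase, was 28.1-fold lower (4.71 and 132 CPM), its partner *Rrm1* 2.47-fold lower (26.6 and 65.9 CPM), and *Tk1*, thymidine kinase, 46.3-fold lower (1.48 and 68.7 CPM). The E-type cyclins *Ccne2* (1.87 and 23.8 CPM) and *Ccne1* (1.74 and 9.60 CPM) were 12.7-fold and 5.51-fold lower. *Slbp*, which binds the stem loop of histone mRNAs, stood at 119 and 199 CPM and was 1.67-fold lower.

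Class by class, the sum of the 40 genes was 4296 CPM (interval 4259 to 4333) in multipotent and 3637 CPM (3597 to 3677) in neurogenic GFP- cells. It was 1353 CPM in transitional cells, 816 CPM in AC/HC, 646 CPM in RGC and 759 CPM in the 45 GFP- cone cells. In the GFP+ library the cone cells summed to 789 CPM (774 to 804), the transitional cone cells to 757 CPM, the 25 neurogenic cells to 2327 CPM and the 14 multipotent cells to 3707 CPM. The 33 GFP+ cells with multipotent and postmitotic markers summed to 1102 CPM. The transitional cells of the GFP- gate summed to 1364 CPM with RGC markers, 1359 CPM with AC/HC markers and 1111 CPM with cone markers, the last from 20 cells. Cells were also thinned to 3200 UMIs each, and cells with fewer were left out (8 of the 241 GFP+ transitional cone cells). The median was then 2 UMIs in transitional RGC, 3 in transitional AC/HC and 2 in GFP+ transitional cone cells. The 95th percentiles were 17, 12 and 5 UMIs, so that the medians were close and the upper tails were not.

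**Figure D2:**
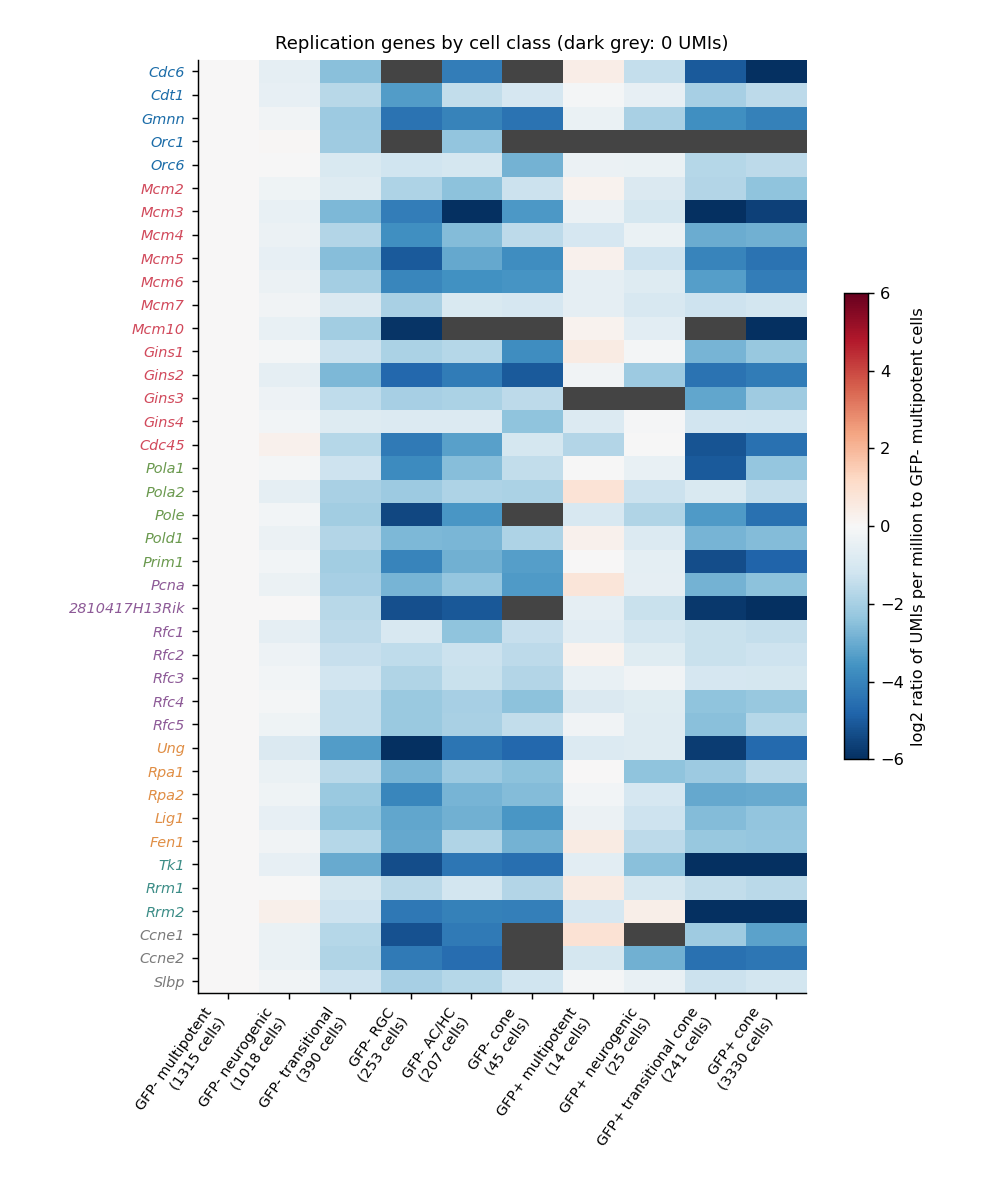
Heat map of the log2 ratio of UMIs per 1000000 to GFP- multipotent cells, the reference column at 0, for the 40 genes (rows, names colored by role) in 10 classes (columns, with the number of cells). GFP- neurogenic cells stay near the reference, and the 25 GFP+ neurogenic cells lie lower in sum (2327 against 4296 CPM). RGC, AC/HC and cone cells are blue in nearly every row, with *Mcm7*, *Gins4*, *Orc6*, *Rfc1*, *Rfc2* and *Rfc3* among the palest. Dark grey marks 0 UMIs, most often in the classes of few cells.

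Counted per cell, with every cell of at least 3200 UMIs thinned to that number, multipotent cells had a median of 13 UMIs of the 40 genes, neurogenic cells 9, transitional cells 3, and RGC, AC/HC and GFP+ cone cells 2. Cells under 3200 UMIs were left out, 551 of the 3330 GFP+ cone and 3 of the 1315 multipotent cells. The cone values are thus those of the deeper cone cells. None of the 40 was found in 0.229% of multipotent, 2.27% of neurogenic, 9.28% of GFP+ cone, 6.80% of AC/HC and 16.0% of RGC cells. A threshold of 4 UMIs was set at the 5th percentile of the multipotent cells, so that 95% of these met it by construction. At least 4 UMIs were found in 78.4% of neurogenic cells (75.8 to 80.9%). The same threshold was met by 32.3% of transitional, 28.2% of AC/HC, 24.7% of GFP+ cone and 14.8% of RGC cells, and by 13 of the 14 GFP+ multipotent cells. Of the GFP+ neurogenic cells 11 of 24 met it, and their median was 3 UMIs with a 95th percentile of 26.1 UMIs. Neurogenic cells were the more spread out, with a 25th percentile of 4 UMIs where that of multipotent cells was 8 UMIs.

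**Figure D3:**
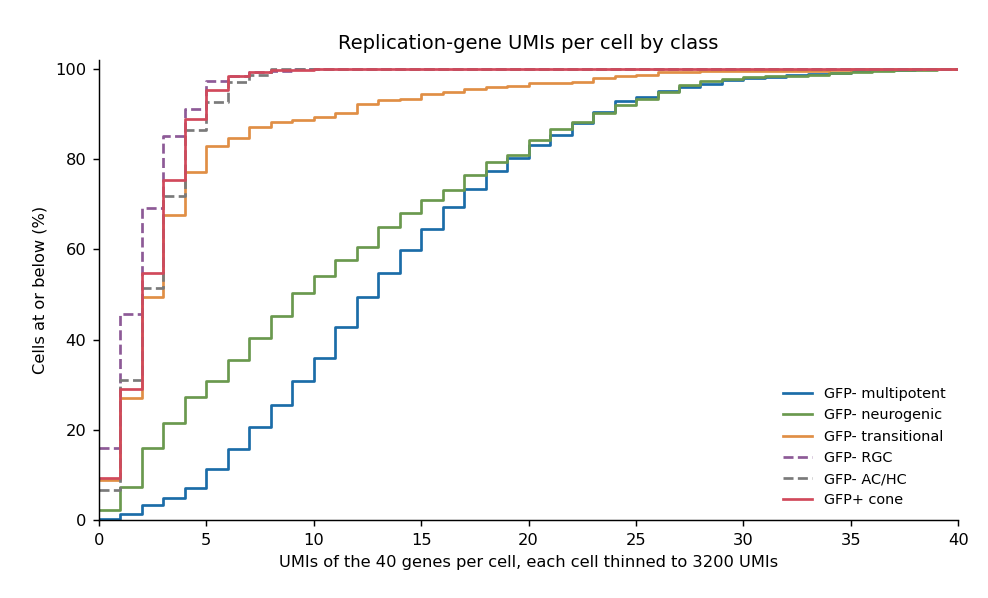
Cumulative share of cells (vertical axis, percent) at or below a number of UMIs of the 40 genes (horizontal axis), 1 step line per class. Each cell was thinned to 3200 UMIs, and cells with fewer were left out. The multipotent and neurogenic lines meet at high UMI numbers and part at low ones, and the RGC, AC/HC and GFP+ cone lines rise steeply around their median of 2 UMIs.

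Within the GFP- library the step from multipotent to neurogenic cells was small. None of the 40 genes was at least 2-fold lower or higher in neurogenic cells, where 1.63% and 2.87% of all 11015 tested genes were. The median log2 ratio was -0.29, against 0.01 for all genes. The interval of the ratio lay below 1 for 30 genes, above 1 for 2 and held 1 for 8, where among all tested genes it lay below 1 for 17.6% and above 1 for 20.6%. The lowest ratio was that of *Ung* (67.5 against 122 CPM, ratio 0.554, 0.503 to 0.610), and *Rfc1*, *Pola2*, *Cdc6*, *Gins2* and *Tk1* followed between 0.684 and 0.702. The 2 genes above 1 were *Rrm2* (192 against 156 CPM, ratio 1.23, 1.15 to 1.32) and *Cdc45* (34.0 against 28.3 CPM, ratio 1.20, 1.02 to 1.41). *2810417H13Rik* stood at 527 and 515 CPM, and its interval held 1. Mitotic genes that are not among the 40 were higher in the same neurogenic cells, with a median log2 ratio of 0.59 over 20 genes. What part a different mix of cell cycle phases had in these ratios was examined only by the bins of histone and mitotic UMIs given further on.

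Against the same multipotent cells, the postmitotic GFP- cells were at least 2-fold lower in 38 of 39 genes tested and at least 2-fold higher in none, where 17.1% and 16.6% of all 10956 tested genes were. The exception was *Gins4* at 40.5 against 73.7 CPM (ratio 0.550, 0.464 to 0.647), and *Orc1* was not tested for having 47 UMIs over both groups. The median log2 ratio was -3.05, with 0.03 for all genes. *Mcm10* had 1 UMI in the 507 cells, *Cdc6* and *Ccne1* had 2 UMIs each and *Pole* had 3 UMIs. *Slbp* (307 UMIs), *Rfc2* (278 UMIs) and *Mcm7* (267 UMIs) were well counted there.

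GFP+ cone cells, compared with those multipotent cells as well, were at least 2-fold lower in all 39 genes tested and at least 2-fold higher in none, beside 13.2% and 28.2% of 11921 tested genes. The median log2 ratio was -2.46, against 0.42 for all genes. The size of the difference varied from gene to gene over a range far wider than counting error. For 16 of the 40 genes the ratio was under 0.1, for 12 it lay from 0.1 to 0.3, and for 12 it was over 0.3. The shares of all genes within these limits were not counted.

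The lowest ratios belonged to *2810417H13Rik* (2.52 against 515 CPM, 204-fold lower), *Tk1* (0.519 against 105 CPM, 202-fold lower) and *Rrm2* (1.04 against 156 CPM, 150-fold lower). *Mcm10* was 97.7-fold lower from 3 UMIs (ratio 0.0102, 0.0021 to 0.0302), *Cdc6* 68.9-fold lower from 5 UMIs, and *Orc1*, with 0 against 46 UMIs, at least 16.8-fold lower. At the other end stood *Rfc3* (45.0 against 93.0 CPM, ratio 0.483, 0.437 to 0.534), *Slbp* (118 against 254 CPM, ratio 0.466) and *Mcm7* (80.7 against 174 CPM, ratio 0.463), then *Gins4*, *Rfc2*, *Pola2* and *Rfc1* between 0.430 and 0.369. *Orc6* (33.5 against 98.5 CPM), *Cdt1*, *Rpa1* (16.4 against 49.9 CPM), *Rrm1* (25.5 against 78.9 CPM) and *Rfc5* (27.4 against 88.5 CPM) lay between 0.340 and 0.309. Of the genes with the E2F-type motif shown above, *Cdc6* was among the lowest and *Rfc3* and *Mcm7* among the highest of these ratios, *Orc1* had 0 UMIs, and in between stood *Mcm5* at 0.0463, *Mcm6* at 0.0561, *Pola1* at 0.202 and *Gins3* at 0.229.

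**Figure D4:**
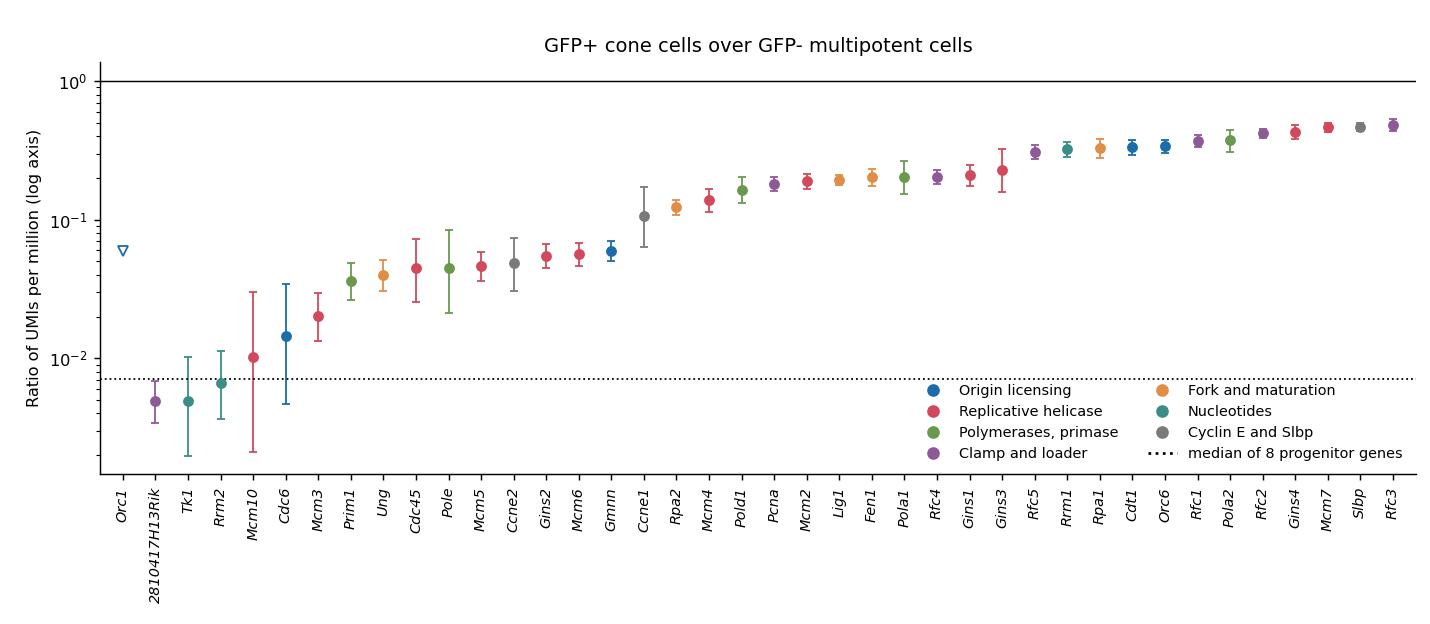
Ratio of UMIs per 1000000 (log axis) in the 3330 GFP+ cone cells over the 1315 GFP- multipotent cells for the 40 genes in rising order, colored by role, with 95% exact intervals of counting. The ratios run from 0.0049 for *2810417H13Rik* to 0.483 for *Rfc3*, the open triangle is the limit for *Orc1* at 0 UMIs, and the dotted line is the median of the 8 progenitor genes, 0.0071.

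Subunits of the same complex were spread along that order. In the Mcm2 to Mcm7 hexamer the highest ratio (*Mcm7*) was 22.8 times the lowest (*Mcm3*, 2.00 against 98.8 CPM, ratio 0.0203). In ribonucleotide reductase *Rrm1* was 48.4 times *Rrm2*, in polymerase alpha with primase *Pola2* was 10.3 times *Prim1* (3.34 against 92.2 CPM), and in GINS *Gins4* was 7.87 times *Gins2*. The RFC and RPA complexes were more even, with spans of 2.36 and 2.66 times. In each of these 6 complexes the intervals of the highest and the lowest subunit lay apart.

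The progenitor reference genes help to place these low levels. Their own ratio of GFP+ cone over multipotent cells had a median of 0.0071 and ran from 0.0015 to 0.154. *2810417H13Rik*, *Tk1* and *Rrm2* lay below that median, 36 genes lay above it, and 21 lay above all 8 reference genes. The count of 21 was set by *Gpx3* alone, whose ratio was the 0.154 (4.38 against 28.3 CPM). *Gpx3* also stood at 12.0 CPM in RGC. The next highest reference gene, *Sfrp2*, was far lower, at 20.6 against 1600 CPM. *Orc1*, at 0 UMIs, could not be placed, since its limit lies above the median, and the intervals of *Tk1*, *Rrm2*, *Mcm10* and *Cdc6* held the median. In postmitotic GFP- cells the reference median was 0.0290, with 36 genes above it and *Mcm10*, *Cdc6*, *Ung* and *2810417H13Rik* below it, each with an interval that held it. The share of all genes was not counted there either, and their median ratio was 1.02. The part of free RNA or of doublets in the lowest levels was not tested.

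After thinning, a UMI of *Slbp* was found in 30.3% of GFP+ cone cells (28.6 to 32.0%) and 53.5% of multipotent cells (unthinned 37.0% and 85.1%), and a UMI of *Mcm7* in 22.5% and 42.1% (unthinned 27.3% and 74.8%). For *2810417H13Rik* the thinned shares were 0.792% (0.497 to 1.20%) and 62.0% (unthinned 0.751% and 82.9%), and for *Rrm2* 0.252% and 32.4% (unthinned 0.390% and 60%). The median depth before thinning was 3832 UMIs in the cone and 9391 UMIs in the multipotent cells.

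The postmitotic lineages were also compared with each other. Between RGC and AC/HC 18 of the 40 genes were tested. *Rfc1*, the large subunit of the clamp loader, was the only one of the 40 whose interval lay above 1 (61.4 against 22.6 CPM, ratio 2.71, 1.84 to 4.12). That was 5.56% of the tested members, beside 14.7% of all 7092 tested genes. *Mcm7* (45.3 against 91.3 CPM, ratio 0.496), *Rpa2*, *Fen1*, *Cdt1* (7.11 against 26.3 CPM, ratio 0.271), *Mcm5* and *Ung* were lower in RGC with intervals below 1. Of these, 4 were tested (22.2%, beside 24% of all tested genes), *Mcm5* and *Ung* having under 50 UMIs. The shares of the tested members were thus near or below those of all genes. For the other 33 genes the interval held 1, and many of them had under 50 UMIs. The median ratio over the tested members was 0.832 for RGC over AC/HC, 1.36 for GFP+ cone over RGC and 0.897 for GFP+ cone over AC/HC. The medians of all tested genes were 0.920, 1.41 and 1.26, so that cone over RGC was close to all genes. Over all 40 genes, with those under 50 UMIs, the medians were 0.736, 1.25 and 0.873. By their intervals, GFP+ cones were above RGC in 14 genes, all of them among the 30 tested (46.7%, beside 51.9% of all 11025 tested genes), led by *Ung* (65 against 3 UMIs), *Cdt1* (24.5 against 7.11 CPM, ratio 3.44, 2.17 to 5.79), *Pola1* and *Rpa1*, and below it in 8 genes, 5 of them tested (16.7%, beside 19.3% of all), with *Rrm2*, *2810417H13Rik* and *Tk1* the lowest. The shares of the members that lay above or below RGC were thus near those of all genes. Against AC/HC they were above in *Rfc1*, *Slbp* and *Lig1* (49.6 against 34.3 CPM), 3 of 29 tested, beside 37.1% of all 10882 tested genes, and below in 7 genes, 5 of them tested (17.2%, beside 18.4% of all), again with *Tk1*, *Rrm2* and *2810417H13Rik* the lowest. The AC/HC cells also carried 280 CPM of *Cldn5*, a marker of endothelial cells, of a sum of 289 CPM over 13 markers of blood, vessel, microglia, pigment and connective tissue cells, 7 of which were at 0. *Pecam1*, another endothelial marker among the 13, was not high there, at 2.19 CPM in AC/HC and 4.97 CPM in GFP+ cone cells. The sum over the 13 markers was 10.9 CPM in RGC and 39.5 CPM in GFP+ cone cells, and its part in the differences between lineages was not tested.

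Transitional GFP- cells, with neurogenic and postmitotic markers together, were below multipotent cells in all 40 genes with intervals below 1, where 27.4% of all 10666 tested genes were. The median ratio was 0.303 over the 40 genes and 0.305 over the 39 tested, beside 1.02 for all tested genes. *Ung* (11.8 against 122 CPM, ratio 0.0971), *Tk1* (12.9 against 105 CPM, ratio 0.123) and *Gins2* were the lowest, and *Gins4* (ratio 0.591), *Mcm2* (64.4 against 112 CPM, ratio 0.577) and *Mcm7* the highest. *2810417H13Rik* was still at 160 CPM in these cells, with 28.2% of them holding a UMI. In the GFP+ gate, transitional cone cells differed little from cone cells, with *2810417H13Rik* (9.35 against 2.52 CPM, ratio 3.71, 1.75 to 7.33), *Mcm6* and *Mcm2* (32.7 against 21.1 CPM) higher and *Rfc5* and *Pola1* lower by their intervals. That was 2 of 27 tested genes in each direction, *2810417H13Rik* having under 50 UMIs, beside 6.13% of all 10742 tested genes above 1 and 12.5% below.

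The multipotent GFP- cells were then divided by their UMIs of 13 replication-dependent histone genes and of 20 mitotic genes, at the median share of each, which gave 472 cells low in both, 186 histone-high, 471 high in both and 186 mitotic-high cells. *Hist1h2ap* alone held 3113 of the 3698 CPM of the 13 histone genes in multipotent cells, so the histone share rested mostly on that gene. The 13 genes also summed to 526 CPM in GFP+ cone cells, so their RNA was not confined to progenitor cells. The histone and the mitotic threshold lay at 0.0864% and 0.0655% of a cell's UMIs, where the cells had a median of 9391 UMIs. Within 10% of these thresholds lay 32 and 45 of the 1315 cells. At so few UMIs per cell those counts cannot show how cleanly the bins were parted. The 13 histone genes summed to 8406 CPM in both-high, 2502 CPM in histone-high, 317 CPM in mitotic-high and 242 CPM in both-low cells. The bin named histone-high was thus not the richest in histone RNA. The 20 mitotic genes summed to 2763 CPM in both-high, 2584 CPM in mitotic-high, 282 CPM in histone-high and 179 CPM in both-low cells. The 40 genes summed to 5770 CPM in histone-high, 4432 CPM in both-high, 3985 CPM in both-low and 3110 CPM in mitotic-high cells. Comparing histone-high with mitotic-high cells, 18 of 39 genes tested were at least 2-fold higher and none at least 2-fold lower, where 3.08% and 1.72% of all 6328 tested genes were. The median log2 ratio was 0.98, against -0.04 for all genes. *Orc1* was not tested.

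Of the 40 genes, 34 were highest in histone-high cells, 5 in both-high cells and *Orc1*, from 9 UMIs, in mitotic-high cells. How all genes divided in this way was not counted. Some of these calls were near ties, such as *Slbp* at 284 CPM in both-high and 283 CPM in histone-high cells. The widest contrasts between histone-high and mitotic-high cells were those of *Mcm10* (33.2 against 6.04 CPM, ratio 5.51, 2.79 to 12.1), *Ccne1* (26.5 against 4.83 CPM, ratio 5.48), *Cdc45* (47.9 against 9.66 CPM, ratio 4.96) and *Ccne2* (60.3 against 13.9 CPM, ratio 4.34). *Tk1* (141 against 41.7 CPM), *Cdc6*, *Pola1*, *Pole* and *Lig1* (370 against 120 CPM) were 3.39 to 3.10 times higher. *Mcm4* was alike in both bins (85.6 and 84.5 CPM, ratio 1.01, 0.800 to 1.28), and *Slbp* differed little (283 and 213 CPM).

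**Figure D5:**
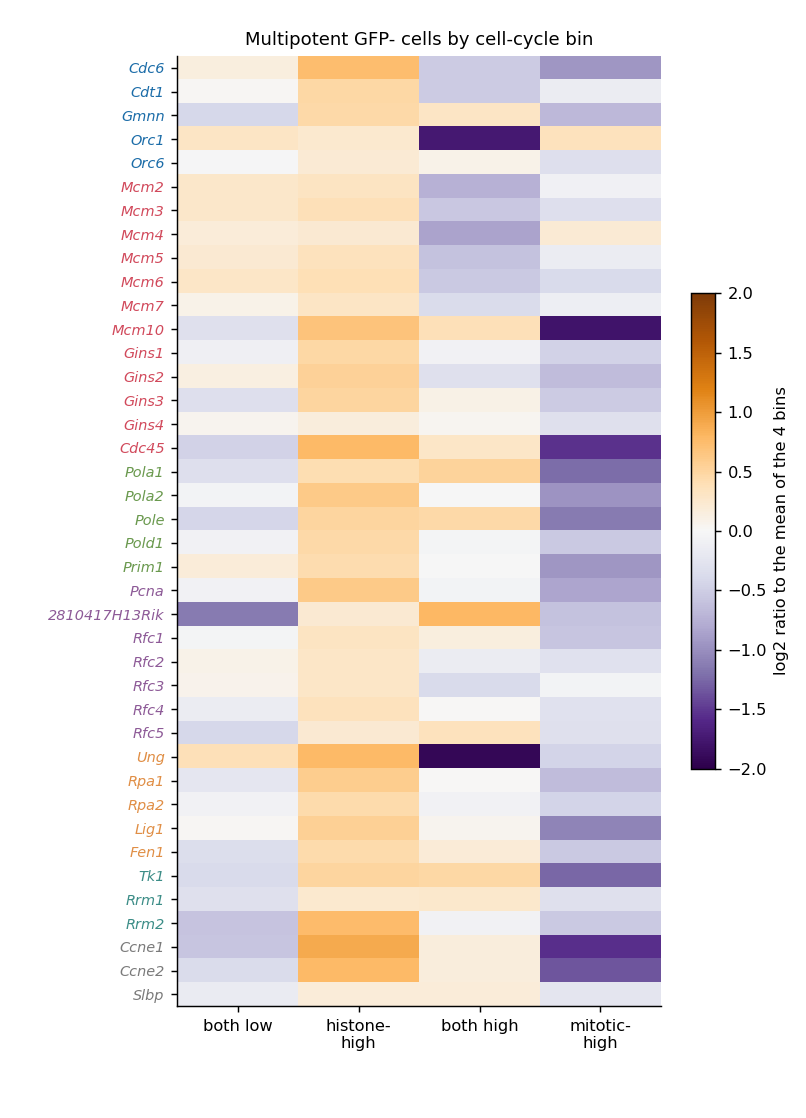
Heat map of the log2 ratio of each gene's UMIs per 1000000 to its mean over the 4 bins, for the 40 genes (rows, names colored by role) in multipotent GFP- cells binned by histone and mitotic UMIs (columns). The histone-high column is the highest for 34 genes and the mitotic-high column the lowest for 26, and such counts were not made over all genes. The both-high column is the lowest for 10, the Mcm2 to Mcm7 genes, *Ung*, *Cdt1*, *Orc1* and *Rfc3*.

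Between the remaining bins, 16 of the 40 genes were higher in both-low than in both-high cells and 24 were the reverse. The division of all genes was not counted, and intervals were not applied to these calls. Some were near ties, such as *Rpa2* (163.6 and 163.5 CPM) and *Gins4* (75.1 and 74.8 CPM in both-low and both-high cells). All 6 genes of the Mcm2 to Mcm7 hexamer were higher in both-low than in both-high cells, with ratios of both-high over both-low from 0.492 (*Mcm4*, 40.7 against 82.8 CPM) to 0.726 (*Mcm7*, 141 against 193 CPM). *Ung* showed the strongest form of this pattern, at 178 CPM in both-low, 234 CPM in histone-high, 36.5 CPM in both-high and 101 CPM in mitotic-high cells. *Cdt1* (80.1 against 54.8 CPM) and *Cdc6* (29.6 against 18.8 CPM) were also higher in both-low than in both-high cells. *2810417H13Rik* was the reverse, at 219 CPM in both-low, 564 CPM in histone-high, 829 CPM in both-high and 316 CPM in mitotic-high cells. *Gmnn*, the inhibitor of *Cdt1* protein, stood at 147 CPM in both-low and 244 CPM in both-high cells, and *Pole*, *Tk1*, *Pola1* and *Rfc5* were 1.84 to 1.70 times higher in both-high than in both-low cells. Over the 40 genes the highest bin exceeded the lowest by a median of 2.1 times, from 1.33 times for *Slbp* to 6.41 times for *Ung*.

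Neurogenic cells were placed in the same bins by the same thresholds. Of them 39.5% were both-low, 8.35% histone-high, 39.5% both-high and 12.7% mitotic-high, while the multipotent cells divided into 35.9%, 14.1%, 35.8% and 14.1%. Within bins the median ratio of neurogenic over multipotent cells was 0.713 in both-low (38 genes tested), 0.738 in mitotic-high (30), 0.909 in histone-high (38) and 0.946 in both-high cells (39). All-gene medians in the bins lay between 0.991 and 1.03. *Rrm2* was higher in neurogenic than in multipotent cells of the both-high bin (ratio 1.77, 1.61 to 1.95), as was *Cdc45* (ratio 1.47, 1.19 to 1.83). In other bins *Rrm2* was lower in neurogenic cells, with ratios of 0.792 (0.680 to 0.921) in both-low and 0.756 (0.627 to 0.908) in histone-high cells. Its interval held 1 in mitotic-high cells (ratio 1.24, 0.992 to 1.54). *Cdc45* had ratios of 0.944 in both-low and 0.798 in histone-high cells, with intervals that held 1. *Ung* was lower in both-low cells (ratio 0.529, 0.460 to 0.606) and in both-high cells (ratio 0.681, 0.525 to 0.879), and *Ccne2* was the lowest of the 38 tested genes of the both-low bin (ratio 0.355, 0.229 to 0.535).

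A list of 54 other replication genes gave the setting for these values. Of them 34 were at least 2-fold lower and none higher in GFP+ than in GFP- cells, none was 2-fold different between neurogenic and multipotent cells, and 43 were at least 2-fold lower and none higher in postmitotic GFP- cells. In GFP+ cone over multipotent cells 37 were at least 2-fold lower, and *Pold4*, a small subunit of polymerase delta, was at least 2-fold higher (ratio 2.33), beside a median ratio of 1.34 for all genes. With TMM factors its ratio was 1.8, under the 2-fold call. The origin recognition subunits *Orc4* and *Orc5* stood at ratios of 1.64 and 1.6 before and 1.27 and 1.24 after scaling by TMM factors, where *Orc6* was at 0.340 and *Orc1* at 0 UMIs. *Rrm2b*, the alternative small subunit of ribonucleotide reductase that works outside S phase, had a ratio of 1.51 (1.17 with TMM factors), where *Rrm2* had 0.00666. Cyclin A2 (*Ccna2*), the S and G2 phase cyclin, had 0.00715. Between histone-high and mitotic-high cells 15 of 47 tested genes were at least 2-fold higher and *Ccna2* alone at least 2-fold lower.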

How the data were processed

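The authors deposited 1 matrix of raw UMI counts for each library, the filtered output of Cell Ranger 2.1.1 on the mm10 reference, with no normalization. Kept cells had at least 250 and under 3500 genes and a mitochondrial fraction under 0.25. Doublets called with Scrublet (scanpy 1.11.5, expected rate 0.03; 3 GFP+ and 55 GFP- barcodes, of which 2 and 0 were kept cells) were left in. UMIs were summed per class in Python 3.11.15 (scipy 1.17.1, pandas 2.3.3, numpy 2.4.6). Levels have exact Poisson, shares exact Clopper-Pearson and ratios exact conditional binomial intervals (95%), and a count of 0 is bounded by 3 counts. A gene was tested where it had at least 50 UMIs over both groups, and called at a 2-fold ratio. TMM factors came from edgeR 4.0.16 and served only as another scaling. The intervals were run on simulated Poisson sums, the model that they assume. Such sums hold no spread between cells or libraries, so the run checked the computation only.

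Positions come from GENCODE on GRCm38, the build of mm10, and promoters from RefSeq. *Cdt1* was the only one of the 40 genes that overlapped a counted gene on its own strand, and 13 overlapped one on the other strand, which the 3' kit keeps apart. No RefSeq promoter was matched for *Mcm4*, *Gins1*, *Gins2*, *Gins4*, *Gmnn*, *Pole*, *Rfc2* and *Ccne2*.

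In each of the 7 roles, the genes with the highest and the lowest GFP- CPM and the highest and the lowest ratio of GFP+ cone over GFP- multipotent cells are given in full. The 40 genes, the lists and the comparisons were chosen with earlier results of these data known. Neurogenic and multipotent cells were compared within bins only after the data were seen. The neurogenic, postmitotic and cone comparisons share the multipotent GFP- cells. Some of the markers behind the classes are not reported here.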

Additional observations from a re-analysis of the deposited data

How the results depend on the processing

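No paired analysis was possible because there was 1 library per gate, and for the same reason no library could be left out. None of the medians or counts over the 40 genes changed direction under any alternative tried, and 161 of the 179 recomputed medians and counts stayed within the counting error or within 1.5 times. Values of single genes were less steady, 278 moving further and 1245 not. With thinning 52 moved and 144 did not, without the upper gene and mitochondrial limits 41 and 157, and with quartiles 16 and 3. As mean UMIs per cell 86 moved and 112 did not, and with TMM factors 52 and 146. The median log2 ratio of GFP+ over GFP- cells was -2.32 with TMM factors and -3.07 as mean UMIs per cell, and that of GFP+ cone over GFP- multipotent cells -2.83 and -3.66. These scalings shift every gene of a comparison alike, so the distance of the 40 genes from the median of all genes could not change. At a 4-fold ratio 20 genes were lower in GFP+ cells, beside 8.22% of all tested genes. The count of genes higher in histone-high than in mitotic-high cells was 28 at a 1.5-fold ratio (9.04% of all tested genes) and 4 at a 4-fold ratio (0.601% of all). It was 8 of 28 tested when cells were thinned to 3200 UMIs (1.90% of all) or a gene needed 200 UMIs (1.30% of all). With quartiles in place of medians 1 histone-high cell was left against 28 and 1 gene was tested, with a log2 ratio of 2.15. The count of genes lower in neurogenic than in multipotent cells was 1 in place of 0 after thinning (3.86% of all tested genes), at a 1.5-fold ratio (6.85%) and with class thresholds of 5 and 3 UMIs (3.60%). It was also 1 within both-low or mitotic-high cells, where the share of all genes was not counted. The median was -0.49 within both-low and -0.079 within both-high cells, these bins having been chosen after seeing the data. The cause of these shifts was not tested, other than that fewer genes passed the filter. Leaving *Atoh7* out of the neurogenic markers moved the neurogenic median from -0.29 to -0.15. Removing both the upper limit on genes and the mitochondrial limit gave medians from -3.04 to 1.22, each on the same side of 0, and leaving out doublets took away 2 cells. Depth limits genes such as *Orc1*, *Mcm10* and *Cdc6*, whose levels in postmitotic cells rest on 5 UMIs or fewer.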
